A study of Mus musculus with 56 samples.

Results

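Nr1d1, Nr1d2 and Rora encode the nuclear receptors REV-ERBα, REV-ERBβ and RORα, and these 3 genes were chosen by symbol from the 22864 genes listed for mouse heart. All 3 passed the filter on low values. Hearts came from female C57BL/6J mice aged 9 weeks and kept in 12 h of light and 12 h of darkness. For 7 days food was given either by day (DRF, daytime-restricted feeding, in the light phase) or by night (NRF, nighttime-restricted feeding, in the dark phase), and NRF served as the control regimen. PolyA RNA-seq libraries were made at 7 zeitgeber times (ZT, counted in hours from lights on), namely ZT0, ZT4, ZT8, ZT12, ZT16, ZT20 and ZT24, in 14 groups of 4 replicates or 56 libraries. All animals were of this one strain and sex, and no group fed freely was analysed here, so both regimens share the restriction of feeding to one phase. The RNA came from bulk tissue, in which fewer cells of a type and less RNA per cell cannot be told apart.

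REV-ERBs and RORs compete for the same DNA element, an AGGTCA half-site with an AT-rich flank. RORs activate transcription from it and the heme-bound REV-ERBs repress it through the NCoR and HDAC3 corepressor complex, which makes Arntl (BMAL1), Clock and Npas2 peak when REV-ERBs are scarce. The REV-ERB genes are themselves driven by BMAL1 and CLOCK through E-boxes, and this second loop of the clock is known in cardiac muscle as in other tissues, where REV-ERBs also control metabolic genes.

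Levels below are linear TPM (a length-corrected share of all transcripts) that rest on read counts worked back from the deposited values, with 29.3 to 53.0 M reads per library (median 37.4 M). Nr1d1 was counted with 238 to 9358 reads per library under NRF and 386 to 7185 under DRF, and Rora with 777 to 1980 and 748 to 2450, so no value of these genes rested on a handful of reads. The 5 cardiomyocyte markers chosen for the check of the tissue summed to between 19505 and 32303 TPM. Of 4 skeletal muscle markers, 2 were in the table and summed to at most 3.59 TPM. Under NRF 20.4 ± 1.57% of the reads came from the mitochondrial genome, and under DRF 21.8 ± 1.47% (SD, n = 28 each).

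A pair of libraries stood apart from their labels. Over 1078 genes whose rhythm differed between regimens, clock genes left out, the library labelled NRF ZT8 replicate 1 lay nearest to the mean of DRF ZT4 (root mean square distance of 0.172 on the log2 scale, against 0.355 to the rest of its own group). The library labelled DRF ZT4 replicate 1 lay nearest to the mean of NRF ZT8 (0.163, against 0.378). Of the 56 libraries, 47 lay nearest to their own group. For the 7 others the distance to the own group was at most 1.11 times the distance to the nearest one, against 2.07 and 2.32 times for these 2 libraries. The library labelled NRF ZT8 replicate 1 also held 37257 TPM of the 5 erythroid markers, within the range of 1684 to 42972 TPM under NRF. Both libraries were kept under their labels, and values without them stand beside the results for the 3 genes and the counts of the gene lists.

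Nr1d1 is the most strongly cycling of the 3 genes. It lies on mouse chromosome 11 at chr11:98767932-98775333 (GRCm38, minus strand), and 263 of its 3077 exon bases (8.55%) overlap exons of Thra, a thyroid hormone receptor gene on the opposite strand. Whether the counting used strand is not stated, so reads in the overlap cannot be assigned with certainty. Thra averaged 54.8 TPM, peaked at ZT3.60 under NRF and ZT3.89 under DRF, and gave an adjusted p of 0.88 for a difference in rhythm.

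In the window from 250 bases before to 50 after the RefSeq starts, letters known from clock regulation were looked up, since the REV-ERB genes and their targets sit on both sides of this loop. The capitals mark AACGTG, a variant of the E-box, in Nr1d1, and AGGTCA (or TGACCT, its reverse complement) in the others, each with flanking reference sequence on the strand of the gene.
Nr1d1: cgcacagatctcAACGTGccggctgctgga
Nr1d2: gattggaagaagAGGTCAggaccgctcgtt
Arntl: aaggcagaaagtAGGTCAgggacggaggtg
Clock: agctttggcctcTGACCTgacagatgacag
Nfil3: ggcgctcggaacTGACCTactaacacacat

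These stretches are chr11:98775388-98775417 for Nr1d1, chr14:18239166-18239195 for Nr1d2, chr7:113207530-113207559 for Arntl, chr5:76303604-76303633 for Clock and chr13:52981034-52981063 for Nfil3 in GRCm38.p6, on the plus strand for Arntl and the minus strand for the others. The motif began 28 bases before the start of Nr1d1, 77 before that of Nr1d2, 119 before one of 3 listed starts of Clock, 12 before that of Nfil3 and 31 after one of 2 listed starts of Arntl. The other targets looked up, Npas2 and Cry1, held no half-site in their windows, and Per1, a clock gene that is not among the listed targets, held TGACCT 137 bases before one of 2 listed starts. AACGTG or its reverse complement CACGTT occurred in 4.68% of all 32851 promoters of the same length, AGGTCA or TGACCT in 16.3%, and the E-box CACGTG in 7.15%. The Rora window held none of these letters, nor the D-box TTANGTAA or its reverse complement TTACNTAA (2.32% of promoters). A match is a description of letters and not a shown binding site.

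Under NRF Nr1d1 rose through the light phase to ZT8 and fell to its trough at ZT20. At ZT0 the 4 NRF libraries held 12.6, 14.3, 15.7 and 23.3 TPM and the DRF libraries 18.2, 23.1, 21.3 and 25.3 TPM. At ZT4 the NRF libraries held 57.3, 76.2, 63.1 and 65.5 TPM and the DRF libraries 140, 83.1, 59.4 and 55.7 TPM. At ZT8 the NRF libraries held 54.0, 140, 137 and 170 TPM and the DRF libraries 89.6, 82.1, 79.9 and 76.4 TPM. The first values of DRF ZT4 and of NRF ZT8 belong to the 2 libraries that stood apart, and without them the other 3 libraries of NRF ZT8 lay above all libraries of DRF ZT8. At ZT12 the NRF libraries held 86.1, 73.6, 69.9 and 48.1 TPM against 48.8, 46.4, 43.5 and 44.9 TPM under DRF. At ZT16 they held 18.1, 23.3, 21.6 and 10.5 TPM against 28.6, 15.6, 18.6 and 17.9 TPM. The groups overlapped at both of these times, with a lower mean under DRF at ZT12. At ZT20 the NRF libraries held 5.08, 5.41, 4.93 and 5.62 TPM and the DRF libraries 8.80, 12.7, 6.93 and 9.27 TPM. At ZT24 the values were 12.5, 8.38, 12.8 and 19.7 TPM under NRF and 31.2, 12.8, 29.0 and 18.2 TPM under DRF. ZT20 was the only one of the 7 times at which the Nr1d1 values of the regimens did not overlap, and the trough was 1.79-fold higher there under DRF.

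The level of Nr1d1 went from 5.26 ± 0.31 TPM at ZT20 to 125 ± 49.9 TPM at ZT8 under NRF, a 23.8-fold range, and from 9.42 ± 2.39 TPM at ZT20 to 84.6 ± 39.1 TPM at ZT4 under DRF, an 8.99-fold range (SD, n = 4). Ordered by their means, 10 of the 13 neighbouring pairs of the 14 groups overlapped in their libraries. NRF ZT20 lay below DRF ZT20, DRF ZT24 below DRF ZT12, and DRF ZT12 below NRF ZT4, each without overlap. From NRF ZT4 up to NRF ZT8, which was highest, each group overlapped its neighbour. Without their first replicates, NRF ZT8 stood at 149 ± 18.4 TPM and DRF ZT4 at 66.1 ± 14.9 TPM (SD, n = 3), below DRF ZT8 with 82.0 TPM.

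Nr1d2, the second REV-ERB gene, lies at chr14:18204054-18239127 (minus strand), and no other annotated gene overlaps it. It kept a later peak than Nr1d1, and under DRF it never fell as low as under NRF. At ZT0 the NRF libraries held 8.59, 9.43, 7.64 and 15.4 TPM and the DRF libraries 27.2, 33.6, 27.3 and 25.7 TPM. At ZT24 they held 12.1, 9.25, 9.87 and 11.1 TPM under NRF and 24.8, 23.4, 34.2 and 23.4 TPM under DRF. At both ends of the day every DRF library lay above every NRF library, by 2.77-fold in the mean at ZT0 and 2.50-fold at ZT24. At ZT4 the NRF libraries held 23.4, 31.3, 31.4 and 35.6 TPM against 64.7, 35.1, 34.8 and 29.4 TPM under DRF. At ZT8 they held 32.1, 61.3, 69.6 and 62.2 TPM against 59.3, 55.5, 63.8 and 63.9 TPM. The 64.7 and the 32.1 TPM are the first replicates of DRF ZT4 and NRF ZT8, and without them the regimens still overlapped at these 2 times. At ZT12 the NRF libraries held 85.4, 80.2, 84.2 and 76.6 TPM and the DRF libraries 57.8, 59.2, 48.7 and 58.9 TPM, with every DRF library below every NRF library. At ZT16 the values were 54.1, 57.8, 58.2 and 39.9 TPM under NRF and 52.6, 41.3, 45.8 and 38.2 TPM under DRF. At ZT20 they were 26.8, 17.1, 21.8 and 19.7 TPM under NRF and 30.6, 24.2, 29.5 and 30.3 TPM under DRF. The groups overlapped at ZT16 and ZT20.

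Nr1d2 ranged from 10.3 ± 3.50 TPM at ZT0 to 81.6 ± 3.98 TPM at ZT12 under NRF (7.95-fold) and from 26.4 ± 5.24 TPM at ZT24 to 60.6 ± 4.04 TPM at ZT8 under DRF (2.29-fold; SD, n = 4). Of the 13 neighbouring pairs in the order of the group means 11 overlapped. NRF ZT24 lay below NRF ZT20, and NRF ZT12 lay above DRF ZT8, without overlap. The lowest and the highest levels of Nr1d2 were both found under NRF.

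Rora, the ROR gene among the 3, spans chr9:68653786-69388246 (plus strand). An annotated antisense gene, Gm15511, shares 82 of its 13071 exon bases. Rora was the least abundant of the 3 genes and had the shallowest rhythm. At ZT0 the NRF libraries held 5.71, 5.39, 4.11 and 5.83 TPM and the DRF libraries 7.45, 5.99, 5.49 and 5.39 TPM. At ZT4 they held 4.65, 5.56, 6.25 and 6.23 TPM under NRF and 5.96, 4.24, 4.10 and 3.83 TPM under DRF. At ZT8 they held 4.45, 6.18, 6.34 and 5.77 TPM under NRF and 5.57, 6.17, 6.63 and 6.65 TPM under DRF. Without the first replicate of DRF ZT4, every DRF library at ZT4 lay below every NRF library. At ZT12 the NRF libraries held 7.96, 7.35, 8.16 and 8.56 TPM and the DRF libraries 7.18, 6.41, 5.81 and 6.44 TPM. At ZT16 the values were 6.42, 7.00, 7.05 and 5.88 TPM under NRF and 7.96, 8.27, 7.76 and 6.93 TPM under DRF. The regimens exchanged their order between these 2 times, with no overlap at ZT12. At ZT20 the NRF libraries held 5.91, 5.96, 5.70 and 5.14 TPM and the DRF libraries 8.17, 7.31, 7.88 and 6.95 TPM. At ZT24 they held 5.81, 4.13, 4.56 and 4.78 TPM under NRF and 6.77, 6.49, 6.35 and 6.63 TPM under DRF. At ZT20 and ZT24 every DRF library lay above every NRF library.

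The lowest group mean of Rora under NRF was 4.82 ± 0.71 TPM (ZT24) and the highest 8.01 ± 0.50 TPM (ZT12), 1.66-fold apart. Under DRF they were 4.53 ± 0.97 TPM (ZT4) and 7.73 ± 0.57 TPM (ZT16), 1.71-fold apart (SD, n = 4). All 13 neighbouring pairs in the order of the group means overlapped. Groups farther apart in this order could be separate, as NRF ZT20 and DRF ZT20 were.

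**Figure D1:**
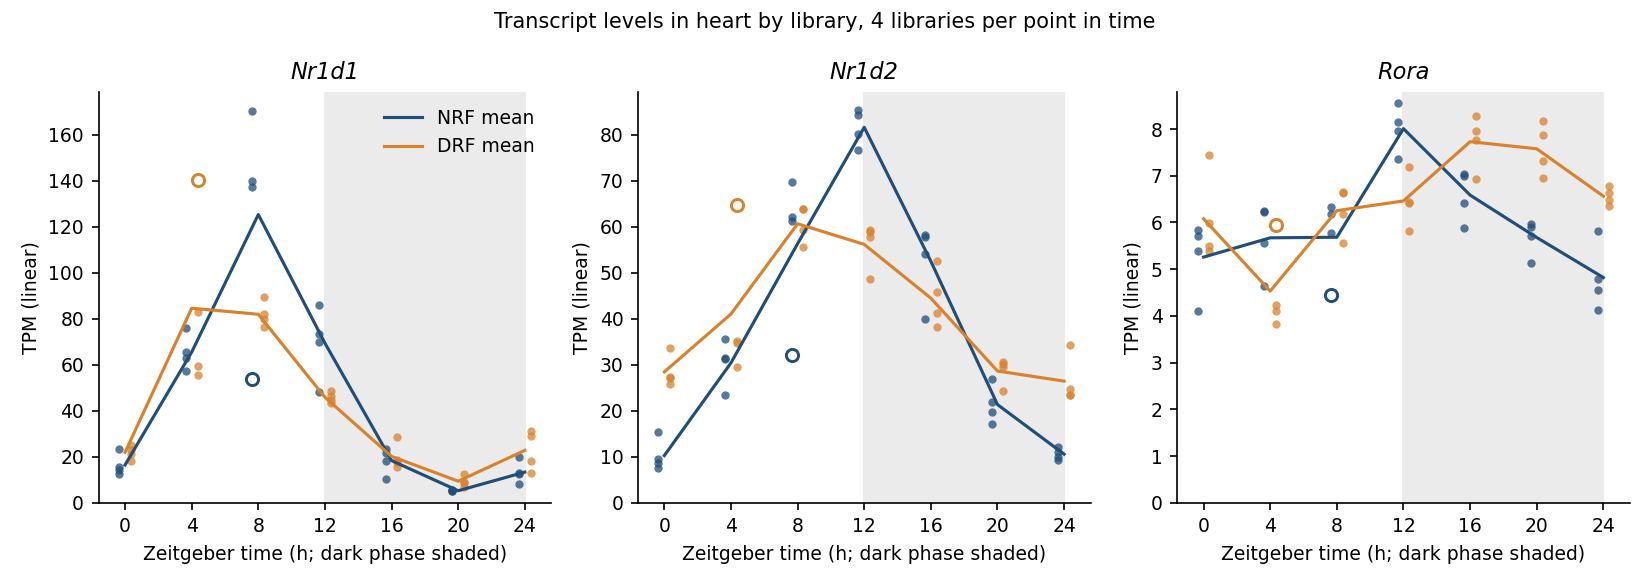
TPM of Nr1d1, Nr1d2 and Rora (linear axis from 0) against zeitgeber time in hours, with 1 point per library, lines through the means of 4 libraries, NRF in blue, DRF in orange and the dark phase shaded. Open circles are the first replicates of NRF ZT8 and DRF ZT4, and the Nr1d2 values at ZT0, ZT12 and ZT24 and the Rora values at ZT12, ZT20 and ZT24 do not overlap between regimens.

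Each gene was then tested for a 24-h rhythm, as the amplitude (from the mean to the peak) of a cosine on the log2(TPM + 1) scale, with limma and Benjamini-Hochberg adjustment over 13892 genes. Differences on this scale are understated at low levels, for Rora at all times and for Nr1d1 near its trough. At NRF ZT20 Nr1d1 stood at 5.26 TPM and Rora at 5.68 TPM. All 3 genes passed under both regimens, where 37.2% of all genes passed under NRF and 32.2% under DRF. Nr1d1 had an amplitude of 2.06 ± 0.11 under NRF (SE, adjusted p = 2.52e-13) and 1.53 ± 0.11 under DRF (3.63e-10), the second and the fourth largest of all genes tested. Nr1d2 had 1.39 ± 0.09 under NRF (4.98e-12) and 0.61 ± 0.06 under DRF (6.38e-08), which placed it at rank 10 and rank 80. Rora had 0.23 ± 0.04 under NRF (0.000336) and 0.27 ± 0.05 under DRF (0.000248), at ranks 1901 and 978. Among 30 nuclear receptor genes tested, Nr1d1 ranked 1 and Nr1d2 ranked 2 under both regimens, and Rora ranked 9 and 5. Rora was not called rhythmic under NRF when ZT12 was left out (adjusted p = 0.057). With the 2 libraries that stood apart left out, the amplitudes under NRF and DRF were 2.18 and 1.46 for Nr1d1, 1.44 and 0.60 for Nr1d2, and 0.25 and 0.29 for Rora.

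A difference in rhythm between regimens, tested over both cosine terms in all 56 libraries, was found for Nr1d1 (adjusted p = 0.0030), Nr1d2 (1.80e-07) and Rora (0.0051), where 27.5% of all genes were called. The result for Nr1d2 held in each of 20 alternative settings. That for Nr1d1 missed the threshold without replicate 2 (0.059), replicate 3 (0.073) or ZT12 (0.059). That for Rora missed it without replicate 2 (0.063), replicate 3 (0.099), ZT12 (0.058) or ZT20 (0.055). Without the 2 libraries that stood apart, the adjusted p was 1.78e-05 for Nr1d1, 2.04e-09 for Nr1d2 and 0.00037 for Rora, where 30.5% of all genes were called.

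Both REV-ERB transcripts had an earlier fitted peak and a smaller fitted amplitude under DRF, of which the shift of Nr1d1 and the amplitude of Nr1d2 passed the test. Rora peaked later under DRF. Amplitude ratios were not compared between genes. Nr1d1 peaked at ZT8.15 ± 0.20 under NRF and ZT7.37 ± 0.24 under DRF (SE), a shift of -0.78 h (95% interval -1.43 to -0.12, adjusted p = 0.033). This call was lost in 8 of 19 alternatives, among them leaving out ZT4, ZT12, ZT24 or replicate 1, 2 or 3, with shifts from -1.15 to -0.61 h over all 19. Nr1d2 peaked at ZT11.6 ± 0.27 under NRF and ZT10.3 ± 0.40 under DRF, a shift of -1.23 h (-2.40 to -0.07) that missed the threshold after adjustment (0.059) and passed without ZT4 (-1.81 h, 0.0049) or replicate 4 (-1.68 h, 0.033). Rora peaked at ZT12.9 ± 0.77 under NRF and ZT17.1 ± 0.58 under DRF, a shift of 4.11 h later (2.17 to 6.06, adjusted p = 0.00024), and it passed in each of the 18 alternatives that gave a test, with shifts from 3.62 to 6.24 h. Among 2435 genes rhythmic under both regimens, 63.7% were called for a shift and 34.5% had a later fitted peak under DRF. Without the 2 libraries the shifts were -0.62 h for Nr1d1 (adjusted p = 0.043), -0.68 h for Nr1d2 (0.25) and 4.71 h for Rora (6.21e-06).

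The amplitude of Nr1d2 under DRF was 0.44 times that under NRF (log2 ratio -1.20, 95% interval -1.60 to -0.80, adjusted p = 0.00016). Of the genes rhythmic under both regimens 1.31% were called for amplitude, and 1.19% with a lower one under DRF. The log2 ratio was -0.43 for Nr1d1 (-0.70 to -0.16, adjusted p = 0.11). It was 0.22 for Rora (-0.50 to 0.95, adjusted p = 0.94), an interval that covers both a loss and a gain. Without the 2 libraries the log2 ratio of Nr1d1 was -0.58 and passed (adjusted p = 0.00093), where 2.06% of genes were called, and that of Nr1d2 was -1.26 (9.13e-07) and that of Rora 0.21 (0.90). The Nr1d1 ratio also passed when replicate 1 of every group was left out (-0.54, adjusted p = 0.0095).

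**Figure D2:**
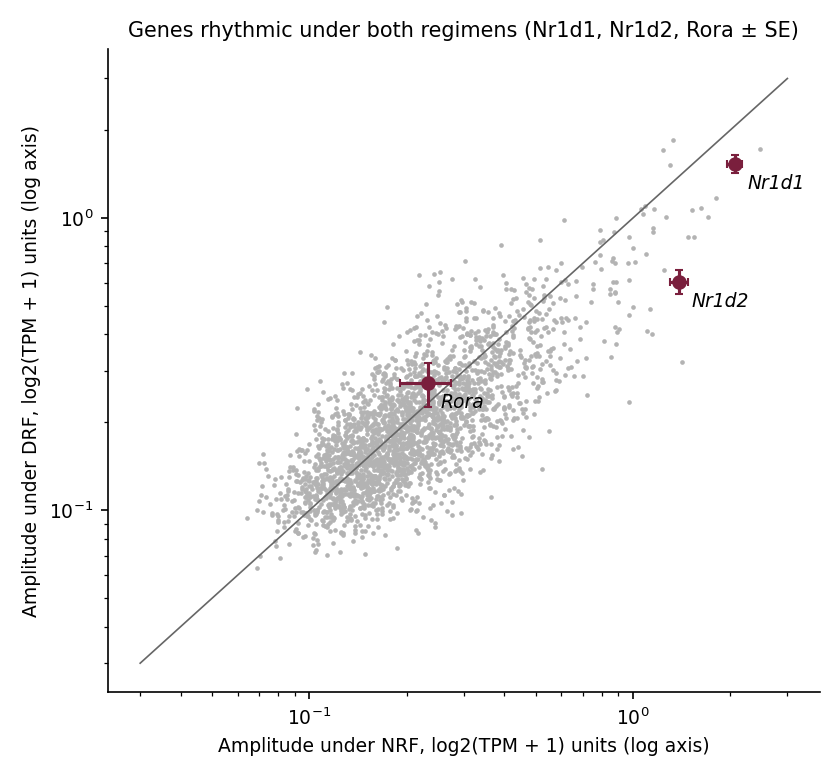
Fitted amplitude under DRF against that under NRF, both in log2(TPM + 1) units on log axes, for the genes rhythmic under both regimens (grey) with Nr1d1, Nr1d2 and Rora as red points ± SE and the line of equal amplitude. Nr1d1 and Nr1d2 lie below the line with log2 ratios of -0.43 and -1.20, and Rora lies close to it.

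Counted from the start of the daily meal, Nr1d1 peaked 20.1 h after food onset under NRF and 7.37 h after it under DRF, and Nr1d2 23.6 h and 10.3 h after it. Rora peaked 0.94 h after food onset under NRF and 17.1 h after it under DRF. Peak time counted from food onset was not tested. Leaving out the 2 libraries gave 20.1 and 7.52 h for Nr1d1, 23.4 and 10.7 h for Nr1d2, and 0.33 and 17.04 h for Rora.

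The order of the 3 genes was followed in the lag between their peaks, with the covariance of genes measured in the same libraries taken into account and no p-value given. Nr1d2 followed Nr1d1 by 3.41 ± 0.30 h under NRF and 2.96 ± 0.40 h under DRF (SE), a change of -0.46 h (95% interval -1.45 to 0.54). Rora followed Nr1d1 by 4.79 ± 0.77 h under NRF and 9.68 ± 0.64 h under DRF, a change of 4.89 h (2.88 to 6.90). The fitted lag of Rora behind Nr1d2 was 1.38 ± 0.68 h under NRF, with a 95% interval of -0.02 to 2.77 h that included 0. Under DRF this lag was 6.72 ± 0.74 h, a change of 5.35 h (3.33 to 7.36). The interval for the change in lag between both REV-ERB genes included 0, and those for the change in lag from either of them to Rora did not. Without the 2 libraries that stood apart, these 3 changes were -0.06, 5.33 and 5.39 h. Dbp, a PAR bZIP factor driven by E-boxes, followed Nr1d1 by 3.18 ± 0.26 h under NRF and 1.82 ± 0.33 h under DRF, a change of -1.36 h (-2.21 to -0.51), or -0.99 h without the 2 libraries.

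Mean levels over the day were compared in a model with one mean per ZT. Nr1d2 was higher under DRF by 0.29 ± 0.08 on the log2 scale (SE, adjusted p = 0.0056), or 1.22-fold on that scale, where 1.67% of all genes were called higher and 24.3% lower. This call was lost without replicate 1 (0.057) and without ZT8 (0.085), and it stood at 0.22 (adjusted p = 0.012) without the 2 libraries. Nr1d1 differed by 0.09 ± 0.10 (adjusted p = 0.54) and Rora by 0.08 ± 0.05 (0.20), and without the 2 libraries by -0.0036 (0.98) and 0.04 (0.44). A mean of log values gives low times more weight than a mean of TPM. In linear TPM Nr1d2 averaged 37.6 under NRF and 40.8 under DRF, and Nr1d1 44.8 and 41.0 (n = 28 each). How far the smaller amplitude of Nr1d2 enters its mean difference was not tested. The Rora difference was called under median-of-ratios scaling (0.13, adjusted p = 0.047), with limma voom (0.15, 0.037) and without ZT4 (0.13, 0.017). Over all genes the split of higher to lower calls was 232 to 3376, and it was 767 to 1043 under median-of-ratios scaling and 353 to 1249 with mitochondrial genes left out of the TPM sum. Of the cell type markers, 4 of 4 endothelial, 3 of 4 smooth muscle and pericyte and 2 of 4 fibroblast genes differed in mean level with limma. So did 2 of 4 macrophage and 2 of 5 cardiomyocyte genes. With limma voom the counts of these lists, in this order, were 2, 1, 1, 1 and 1. The limma calls were lower under DRF except for Tnnt2 (0.10), a cardiomyocyte gene, where 24.3% of all genes were called lower and 1.67% higher. Summed endothelial markers had a median of 508 TPM (416 to 719) under NRF and 446 TPM (351 to 611) under DRF, and smooth muscle markers 717 TPM (625 to 1018) and 637 TPM (554 to 794). Fibroblast markers summed to 466 to 750 TPM under NRF and 433 to 723 TPM under DRF, and macrophage markers to 46.0 to 106 and 44.3 to 85.5 TPM. Of 4 atrial markers 0 were called in the mean with limma or limma voom, and 4 had an unadjusted p under 0.05, with estimates higher under DRF by 0.79 to 1.26 on the log2 scale (adjusted p = 0.077 to 0.10). Their sum ran from 129 to 4308 TPM (median 609) under NRF and from 95.0 to 5483 TPM (median 1803) under DRF. The part of these cell types in the results was not tested, and no marker was at 0 in every library.

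The next comparison set the regimens side by side at the same ZT. Nr1d2 was higher under DRF at ZT0 by 1.42 ± 0.19 (log2, SE, adjusted p = 1.71e-06; 11.5% of all genes were called at this time, and 3.04% as higher) and at ZT24 by 1.23 ± 0.19 (3.73e-05; 8.83% called, 4.38% as higher). Rora was higher under DRF at ZT20 by 0.36 ± 0.10 (adjusted p = 0.012; 14.8% called, 3.35% as higher) and at ZT24 by 0.39 ± 0.10 (0.012). Leaving out replicate 1 of DRF ZT20 ended the first call (0.053), and leaving out replicate 2 of NRF ZT24 ended the second (0.060). Nr1d1 was called at 0 of 7 times with limma and 0 with limma voom, and at 3 times by an unadjusted p under 0.05. Its estimates were 0.71 ± 0.27 at ZT20 (adjusted p = 0.071) and 0.71 ± 0.27 at ZT24 (0.097). At ZT20 it was called with a pseudocount of 0.1 (log2 0.80, adjusted p = 0.0496), under median-of-ratios scaling (0.77, 0.041), on the values as deposited (adjusted p = 0.038) and with mitochondrial genes left out of the TPM sum (0.86, 0.040), and not with voom (0.86, 0.13), without the filter on low values (0.71, 0.11) or with the replicate block (0.71, 0.081). None of the 3 genes was called at ZT4, ZT8, ZT12 or ZT16, where 0.446%, 0.353%, 7.65% and 6.87% of all genes were. Of all genes 11.5% were called at 2 or more of the 7 times, as Nr1d2 and Rora were. Leaving the mitochondrial genes out moved the median of all genes at ZT20 from -0.07 to 0.03.

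Without the 2 libraries more of these comparisons passed, and Nr1d1 gained 3 calls. It was then lower under DRF at ZT8 (-0.85 on the log2 scale, adjusted p = 0.039; 3.6% of genes called) and higher at ZT20 (0.71, 0.024; 16.7% called) and ZT24 (0.71, 0.035; 10.5% called). Nr1d2 was also called lower at ZT12 (-0.53, 0.014; 9.37% called) and higher at ZT20 (0.42, 0.039). Rora was also called lower at ZT4 (-0.39, 0.010; 3.46% called) and at ZT12 (-0.27, 0.039).

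Hearts taken 12 h apart by light are at the same time of their feeding schedule, and at 6 such food times DRF was compared with NRF. Nr1d1 was called at 6 of 6 food times, which 0.101% of all genes reached. Its largest differences were 3.73 ± 0.27 between DRF ZT8 and NRF ZT20 (log2, SE, adjusted p = 1.55e-13; 5.49% called) and -3.51 ± 0.27 between DRF ZT20 and NRF ZT8 (1.38e-12; 24.1% called). Nr1d2 was called at 5 of 6, which 0.54% of genes reached or passed. The difference was 2.31 ± 0.19 between DRF ZT12 and NRF ZT24 (2.18e-12; 5.18% called) and -1.49 ± 0.19 between DRF ZT0 and NRF ZT12 (1.88e-07; 6.21% called). The Nr1d2 pair that did not pass, DRF ZT4 and NRF ZT16 (-0.40, adjusted p = 0.23; 6.4% called), passed without replicate 1 of DRF ZT4 (-0.64, 0.026). The call between DRF ZT16 and NRF ZT4 (0.54, 0.032) was lost in 4 of 8 cases when single libraries of these groups were left out. Rora was called at 5 of 6 food times with smaller differences, from -0.47 ± 0.10 between DRF ZT4 and NRF ZT16 (0.0019) to 0.39 ± 0.10 between DRF ZT16 and NRF ZT4 (0.0041; 22.7% called). Between DRF ZT8 and NRF ZT20 the Rora difference was 0.12 (0.55). With mitochondrial genes left out of the TPM sum, Rora passed at 3 food times. At 2 of the Rora food times, DRF ZT0 with NRF ZT12 and DRF ZT12 with NRF ZT24, leaving out single libraries of the compared groups ended the call in 6 of 8 and 4 of 8 cases. With the 2 libraries left out, Nr1d1 was called at 6 food times, Nr1d2 at 6 and Rora at 5. The Nr1d1 difference between DRF ZT20 and NRF ZT8 was then -3.87 (9.65e-16), and the Rora difference between DRF ZT4 and NRF ZT16 was -0.58 (3.65e-05).

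**Figure D3:**
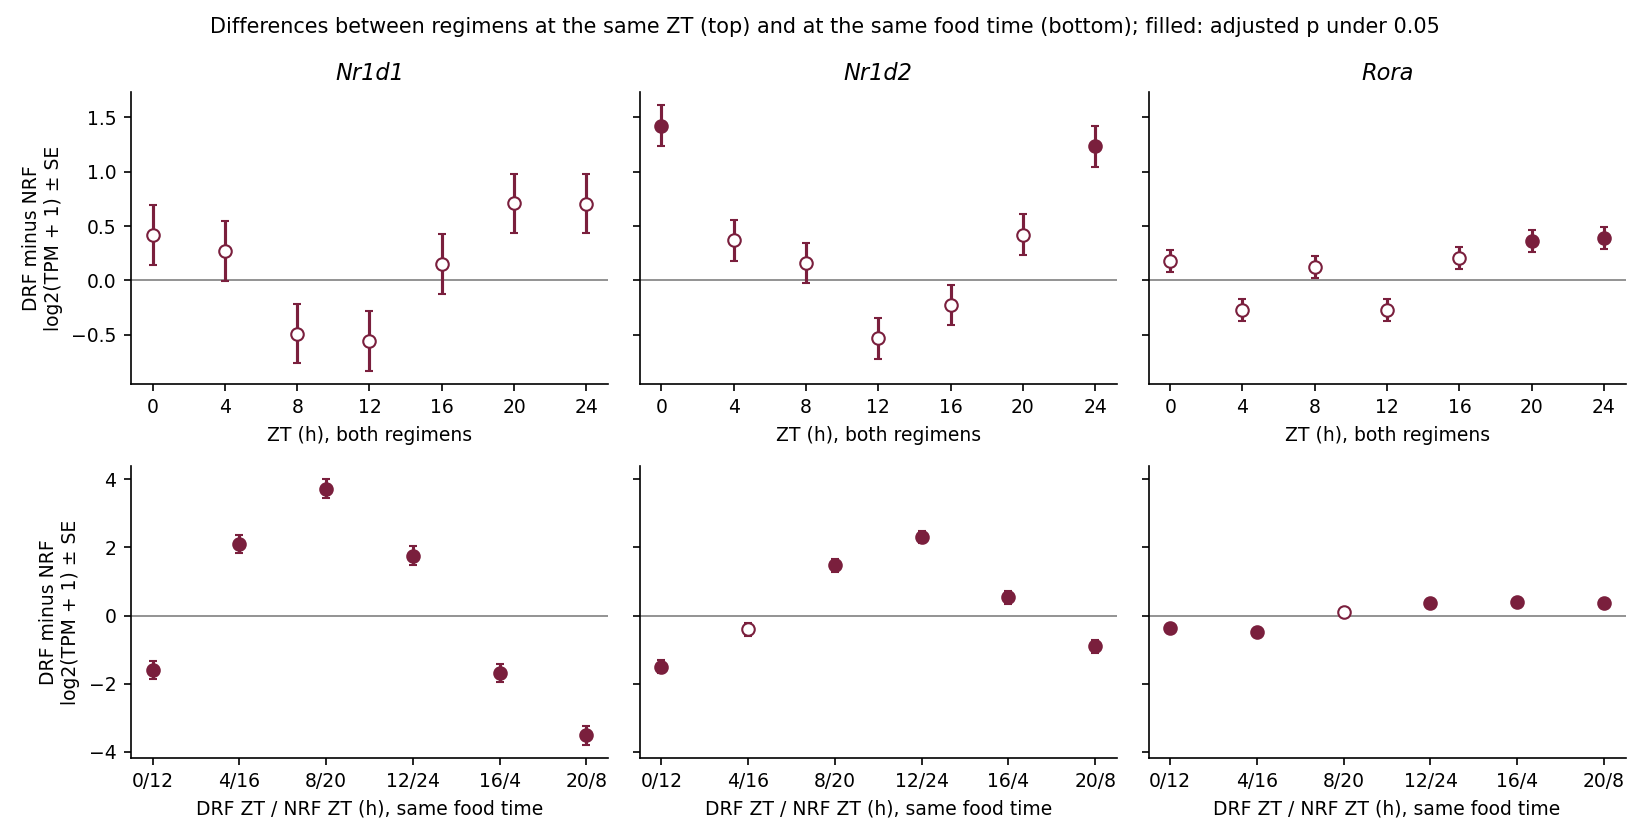
DRF minus NRF on the log2(TPM + 1) scale ± SE for Nr1d1, Nr1d2 and Rora, at the same ZT (top row) and at the same time of the feeding schedule (bottom row, DRF ZT / NRF ZT), with filled points for an adjusted p under 0.05. The scale of the bottom row reaches 3.73 for Nr1d1, while differences at the same ZT stay within 1.42 for the 3 genes.

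ZT0 and ZT24 are the same clock time 1 day apart. Of the 3 genes 0 were called between them under either regimen with limma or limma voom, and 0 had an unadjusted p under 0.05. The differences were -0.31 ± 0.27 for Nr1d1, 0.08 ± 0.19 for Nr1d2 and -0.10 ± 0.10 for Rora under NRF, and -0.02, -0.11 and 0.10 under DRF. Over all genes 0.0576% were called under NRF and 0.425% under DRF.

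The summed REV-ERB transcripts and the share of Nr1d1 in them were followed as a description of mRNA, with no test. Nr1d1 and Nr1d2 together went from 23.9 TPM at ZT24 to 182 TPM at ZT8 under NRF (7.59-fold) and from 38.1 TPM at ZT20 to 143 TPM at ZT8 under DRF (3.75-fold). The share of Nr1d1 in this sum went from 20.2% at ZT20 to 68.4% at ZT4 under NRF, and from 24.8% to 66.8% at the same times under DRF. The means of this share lay farthest apart at ZT0, with 61.8% ± 3.67 under NRF and 43.5% ± 4.33 under DRF. At ZT24, the same clock time 1 day later, they lay closer, with 54.7% ± 7.22 and 45.2% ± 8.39. At ZT12 the share was 45.5% ± 5.03 and 45.0% ± 1.81 (SD, n = 4). Without the 2 libraries, the REV-ERB sum was 214 ± 16.7 TPM at NRF ZT8 and 99.2 ± 17.1 TPM at DRF ZT4, and the share of Nr1d1 was 69.7% ± 3.47 and 66.3% ± 3.71 (SD, n = 3).

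**Figure D4:**
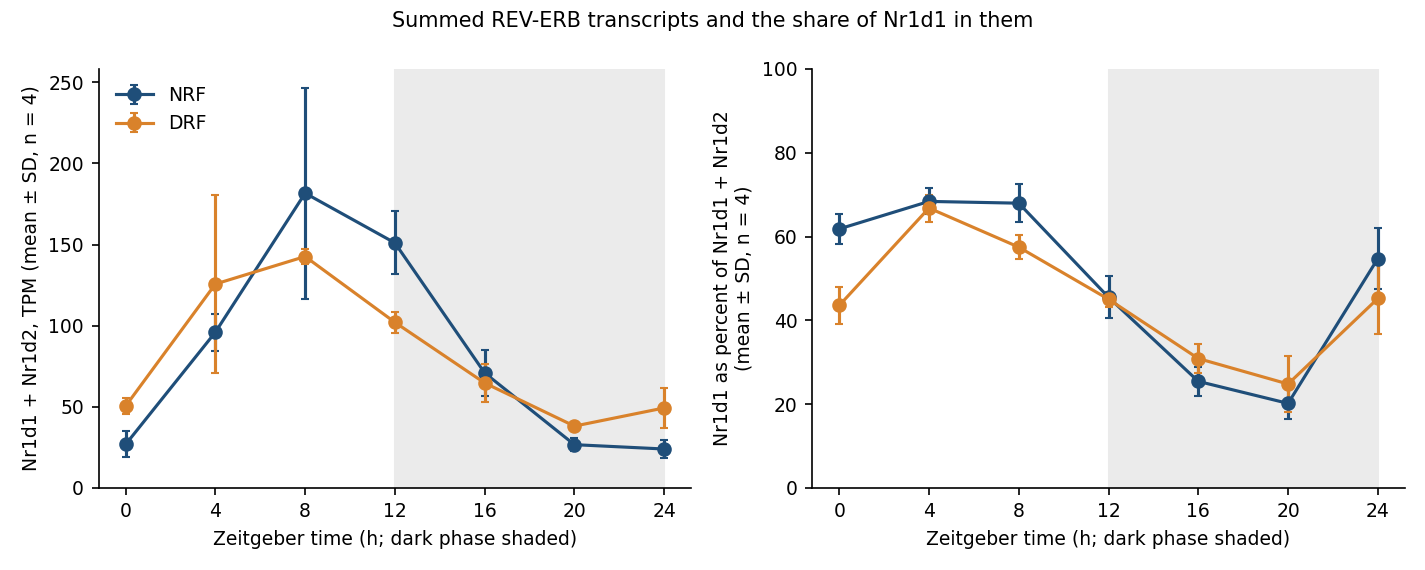
Left, summed TPM of Nr1d1 and Nr1d2 against zeitgeber time in hours, and right, Nr1d1 as a percent of this sum, as means ± SD of 4 libraries with NRF in blue, DRF in orange and the dark phase shaded. The sum is highest at ZT8 under both regimens, the share of Nr1d1 is lowest at ZT20 under both, and the wide bars of the sum at NRF ZT8 and DRF ZT4 hold the 2 libraries that stood apart.

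Genes with ROR/REV-ERB elements were listed as known targets of the 3 receptors. Of 8 listed genes 7 were tested, 6 were rhythmic under NRF, 5 under DRF, and the rhythm of 7 differed between regimens, where the shares over all genes were 37.2%, 32.2% and 27.5%. Their median amplitude was 0.88 under NRF and 0.40 under DRF, against 0.10 under either regimen over all genes. Arntl, the partner of CLOCK, had an amplitude of 1.71 ± 0.08 under NRF and 1.01 ± 0.08 under DRF (SE, adjusted p of the ratio 0.00027), and its peak moved from ZT0.86 to ZT23.2, a shift of -1.71 ± 0.40 h (adjusted p = 0.00020). Npas2, which can stand in for CLOCK, had 1.16 ± 0.08 and 0.93 ± 0.06 (0.38) and moved by -1.77 ± 0.42 h (0.00027). Nfil3, a repressor of D-box genes, had 1.14 ± 0.10 and 0.40 ± 0.09 (0.032) and moved by -3.22 ± 0.93 h (0.0022). Cry1, a repressor of CLOCK and BMAL1, had 0.88 ± 0.08 and 0.55 ± 0.06 (0.16), moved by -2.80 ± 0.54 h (1.09e-05) and was the one target lower in the mean under DRF (-0.26, 0.0034). Clock, named for the sequence printed above, had 0.51 ± 0.04 and 0.24 ± 0.03 (0.0068). All 5 targets rhythmic under both regimens had an earlier fitted peak under DRF, with a median shift of -1.77 h. Over all genes rhythmic under both the signed median was -1.81 h, in which earlier and later shifts offset each other. The median absolute shift was 1.77 h for the targets and 3.81 h over all these genes. The lag of Arntl behind Nr1d1 was -7.29 h under NRF and -8.22 h under DRF, a change of -0.93 h (95% interval -1.87 to 0.01), or -0.55 h without the 2 libraries that stood apart. Leaving these out gave list counts of 6, 5 and 7, with all 5 fitted peaks earlier under DRF and a median shift of -1.30 h. The signed median over all genes rhythmic under both was then -1.54 h. Arntl was then higher in the mean under DRF (0.19, 0.011), and the amplitude ratio of Cry1 passed (-0.90, 0.0095).

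The clock genes driven by E-boxes and D-boxes, regulated like the REV-ERB genes themselves, gave 10 of 10 rhythmic under NRF, 8 under DRF and 9 with a difference in rhythm, where the shares over all genes were 37.2%, 32.2% and 27.5%. Their median amplitude was 1.26 under NRF and 0.63 under DRF. The 8 rhythmic under both regimens had an earlier fitted peak under DRF, with a median shift of -2.11 h. Their median absolute shift was 2.11 h, against 3.81 h over all genes rhythmic under both. Of all these genes 34.5% had a later fitted peak under DRF, and their signed median shift was -1.81 h. Per1 and Cry2 were not called rhythmic under DRF (adjusted p = 0.47 and 0.055). Dbp, with the largest amplitude of the list, had 2.48 ± 0.14 under NRF and 1.72 ± 0.17 under DRF (adjusted p of the ratio 0.099). Per2 and Per3, repressors of the clock, had log2 amplitude ratios of -0.63 (0.0063) and -0.78 (0.00029). Nr1d2 had -1.20, and the difference between genes was not tested. In the mean, Ciart (-0.78, 0.00019) and Bhlhe41 (-0.21, 0.020) were lower under DRF, the second of them not under either other scaling. With the 2 libraries left out, 10 were rhythmic under NRF and 9 under DRF, Cry2 among them (0.044), and 8 of the 9 rhythmic under both had an earlier fitted peak under DRF. The amplitude ratios of Dbp (-0.65, 0.00093) and Ciart (adjusted p = 0.035) then passed, and 3 genes were lower in the mean, Bhlhe40 among them (-0.28, 0.0079).

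**Figure D5:**
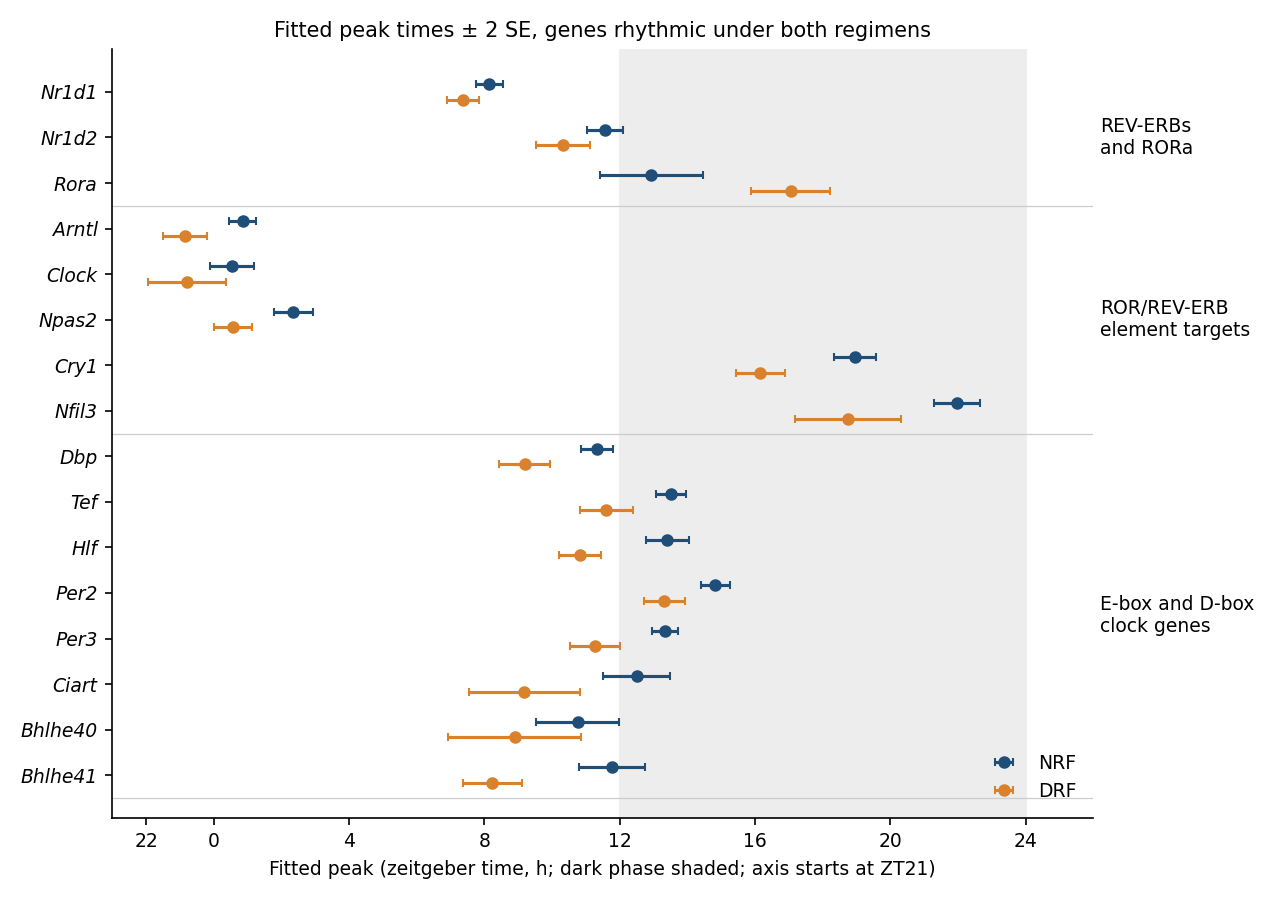
Fitted peak in zeitgeber time (h, axis from ZT21, dark phase shaded) ± 2 SE under NRF (blue) and DRF (orange) for the REV-ERBs and Rora, for ROR/REV-ERB element targets and for E-box and D-box clock genes rhythmic under both regimens. Rora is the gene among those shown with a later fitted peak under DRF, at ZT17.1 against ZT12.9, and all others have an earlier one.

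Genes that act with or on the receptor proteins were looked at next. Of 9 corepressor and coactivator genes, Hdac3, Tbl1xr1 and Ncoa3 were rhythmic under NRF, and Hdac3, Tbl1x, Gps2, Ppargc1a and Ncoa1 under DRF. These are 3 and 5 of 9, where 37.2% and 32.2% of all genes were rhythmic. The rhythm of 6 differed, against 27.5% of all genes, and their median amplitude was 0.09 under either regimen, against 0.10 over all genes. Hdac3, the deacetylase of the corepressor complex, was the one rhythmic under both and moved by -4.23 ± 1.46 h (adjusted p = 0.0099). Ncoa3, a coactivator, had an amplitude of 0.20 ± 0.04 under NRF and 0.01 ± 0.04 under DRF (adjusted p of the rhythm difference 0.0039). Ppargc1a, a coactivator of RORs, was higher in the mean under DRF by 0.27 ± 0.05 (0.00043), and it passed under both other scalings (0.33 and 0.31). Tbl1x and Ncoa3 were lower, and neither passed under the other scalings. All of these list counts were the same without the 2 libraries.

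Heme is the ligand of REV-ERBs, and of 11 genes of its synthesis and breakdown 7 were rhythmic under NRF (37.2% of all genes were). Alas1, Alad, Cpox and Ppox were rhythmic under DRF (4 of 11, against 32.2%), and the rhythm of Alas1, Urod, Cpox and Hmox1 differed (4 of 11, against 27.5%). When the 2 libraries were left out, Ppox was called under neither regimen (0.052 and 0.066), which left 6 and 3. Alas1, the rate-limiting enzyme of heme synthesis, moved its peak from ZT0.08 to ZT12.6, a shift of -11.5 ± 1.24 h (adjusted p = 2.17e-11), with amplitudes of 0.20 ± 0.04 and 0.25 ± 0.05. Cpox moved by -4.77 ± 0.95 h (2.24e-05). Hmox1, which breaks heme down, had amplitudes of 0.31 ± 0.06 and 0.09 ± 0.09 (adjusted p of the rhythm difference 0.016). Of 6 genes of REV-ERB protein turnover, Fbxw7, Siah2 and Cdk1 were rhythmic under NRF and 0 were under DRF with limma or limma voom, with 1 by an unadjusted p under 0.05. The rhythm of Fbxw7 (0.0086) and Siah2 (0.0497) differed between regimens. These counts of 3, 0 and 2 of 6 stand against 37.2%, 32.2% and 27.5% of all genes, and they were the same with the 2 libraries left out. Cdk1 was then called lower in the mean under DRF (adjusted p = 0.036), and not with them (0.060).

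Of 27 other nuclear receptor genes tested, 11 were rhythmic under NRF, 12 under DRF and 6 under both, and the rhythm of 10 differed, where the shares over all genes were 37.2%, 32.2%, 17.5% and 27.5%. Leaving out the 2 libraries gave 11, 11, 5 and 10. Their median amplitudes were 0.12 under NRF and 0.13 under DRF, against 2.06 and 1.53 for Nr1d1. The 6 rhythmic under both had a median absolute shift of 8.24 h, against 3.81 h over all genes rhythmic under both. Nr3c2, the mineralocorticoid receptor gene, had 0.33 ± 0.06 and 0.24 ± 0.08 and moved by -4.56 ± 1.34 h (adjusted p = 0.0027). Its rhythm under DRF was not called without the 2 libraries (0.061). Rxrg, a retinoid X receptor gene, had 0.26 ± 0.04 and 0.08 ± 0.03 (adjusted p of the rhythm difference 0.00021). In the mean 0 were higher under DRF with limma, 0 by an unadjusted p under 0.05 and 3 with limma voom. With limma 7 of 27 were lower, near the 24.3% of all genes called lower (9 without the 2 libraries), and under median-of-ratios scaling 2 were higher and 2 lower.

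The genes whose 14 group means followed each member most closely were looked up among the 9422 genes that averaged 5 TPM or more, as a description in which each group mean comes from the same 4 libraries for both genes. Nr1d2 was most like Dbp (Pearson r = 0.93), Per3 (0.87), Tspan4 (0.86), Tef (0.86) and Tcap (0.84). The most opposite to Nr1d2 were Leo1 (-0.91), Cerk (-0.90), Foxs1 (-0.90), Arntl (-0.89) and Clock (-0.88). Nr1d1 was most like Rps4l (0.89), Vasn (0.89), Parp1 (0.88), Snx33 (0.87) and Tctex1d2 (0.87), and the most opposite included Slco3a1 (-0.90). Rora was most like Sesn1 (0.94), Abca6 (0.92), Shld1 (0.92), Glul (0.91) and Sirt1 (0.90), and most opposite to Azin1 (-0.94) and Ubfd1 (-0.92). Between the members r was 0.63 for Nr1d1 and Nr1d2, 0.54 for Nr1d2 and Rora and -0.09 for Nr1d1 and Rora, and 0.64, 0.55 and -0.04 without the 2 libraries that stood apart.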

How the data were processed

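Heart polyA RNA was sequenced in 56 libraries, 4 per regimen and ZT. Per the submitters' processing notes, reads were aligned with HISAT2 2.0.5 to mm10 and counted with featureCounts 1.5.0-p3. The annotation and strand setting are not given in the sources used here. The values the authors deposited, named TPM, held log2(1 + scaled reads) divided by exon length, times a constant per library. Whole reads were recovered from them with GENCODE M21 exon lengths, and 99.9996% of 1274182 checked values came within 0.1 of a whole number. Of 22864 genes, 830 had a searched length and 4 were left out as unresolved.

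From these reads linear TPM were recomputed and log2(TPM + 1) was fitted with limma 3.58.1 (R 4.3.3, empirical Bayes with trend) for the 13892 genes that averaged 1 TPM or more. A cosine with a period of 24 h gave amplitude and peak, with errors by the delta method. Tests were two-sided with Benjamini-Hochberg adjusted p under 0.05, over all genes, or over the genes rhythmic under both regimens for shifts and amplitude ratios. The fit was tested on simulated data. Libraries were grouped by their labels. The tests assume 4 separate animals per group. No molecular identifiers were used. The members and gene lists were chosen with earlier results of these data known. Some listed genes are not reported here and were left out of the lists and their counts. Listed genes were named when past the threshold, at most 4 per list by amplitude or difference, and all where a count was 5 or fewer. Alternatives were another pseudocount, no filter, 2 other scalings, the deposited values, limma voom, a replicate block, free means per ZT, and leaving out replicates, ZTs or libraries. Leaving out both libraries that stood apart was chosen after seeing the data.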

Additional observations from a re-analysis of the deposited data

Results flagged for a closer look

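The rhythm differed between the regimens in a test of the difference itself (limma over both cosine terms in 56 libraries), with adjusted p-values of 0.0030 for Nr1d1, 1.80e-07 for Nr1d2 and 0.0051 for Rora. For Nr1d2 this was a smaller amplitude under DRF, and for Rora a later peak. In Nr1d1 the phase shift was called (adjusted p = 0.033) and lost in some alternatives, and the amplitude ratio was not called (0.11) but passed in 2 alternatives.

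Of 42 groups of 4 libraries tested, 4 had 1 library far from the 3 others by Dixon's test, all of them Nr1d2 under DRF. These were the highest library at ZT4 (64.7 TPM), the lowest at ZT12 (48.7 TPM), the lowest at ZT20 (24.2 TPM) and the highest at ZT24 (34.2 TPM). Chance flags about 1 in 20 groups. The library at ZT4 is replicate 1, which also lay nearest to NRF ZT8 over 1078 other genes.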

How the results depend on the processing

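Of 733 alternative values of the main results for Nr1d1, Nr1d2 and Rora, 695 stayed on their side of the threshold, or at a count within 1.5 times, and 4 of these changed sign, each uncalled in both fits. Of 720 for single times, 685 stayed, 14 of them with a change of sign between uncalled values. No called value changed sign. The causes of the changes below were not tested. limma voom gave no test of shifts or amplitude ratios, and for Rora no shift was tested without ZT12.

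The adjusted p of the rhythm difference was 0.00068 to 0.073 for Nr1d1 and 0.0031 to 0.099 for Rora when 1 replicate was left out. Without ZT12 it was 0.059 for Nr1d1 and 0.058 for Rora, and without ZT20 it was 0.055 for Rora. The Nr1d1 shift was not called under median-of-ratios scaling (-0.69 h), with the deposited values (-0.71 h), or without ZT4 (-0.62 h), ZT12 (-0.67 h) or ZT24 (-0.76 h), and it was -1.15 to -0.61 h with 1 replicate left out. The Nr1d1 log2 amplitude ratio was -0.54 to -0.38 with 1 replicate left out and -0.58 without both libraries that stood apart, where it was called. Nr1d1 was called at 1 ZT with pseudocount 0.1, median-of-ratios scaling, TPM without mitochondrial genes and the deposited values, at 0 to 1 with 1 library left out, and at 3 without both libraries.

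The Nr1d2 shift was -1.68 to -0.68 h with 1 replicate left out and called without ZT4 (-1.81 h). Its mean difference was 0.21 to 0.33 with 1 replicate left out and not called without ZT8 (0.22). Without both libraries Nr1d2 was called at 4 ZTs. Rora was not rhythmic under NRF without ZT12 (amplitude 0.16). Its mean difference was called under median-of-ratios scaling (0.13), limma voom (0.15) and without ZT4 (0.13). Rora was called at 1 to 3 ZTs with 1 library left out, at 4 without both libraries, and at 3 food times with TPM without mitochondrial genes.

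Genes called for a mean difference numbered 3608, and 1810 under median-of-ratios scaling, 1602 without mitochondrial genes, 1900 with the deposited values, 2007 with limma voom, 1413 without ZT8, 1791 without ZT16, and 1616 and 1178 without replicates 2 and 3. For rhythm under NRF, 5165 became 3312 without ZT12 and 2811 and 3163 without replicates 2 and 3. For DRF, 4479 became 2578 without ZT16 and 2296, 2521 and 2902 without replicates 1, 2 and 3. For the rhythm difference, 3825 became 2387 without ZT12 and 2214 and 1842 without replicates 2 and 3.

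Replicate numbers were to pair libraries only if the correlation of deviations was above 0.1 in every one of 364 same-numbered pairs. It ran from -0.40 to 0.57 with a median of 0.013, so they were not used for pairing. Closest to their own number were 21 of 56 libraries, where an even split gives 14. A rule over every pair is strict and cannot exclude some sharing between same-numbered libraries. With the replicate block the adjusted p of the rhythm difference was 0.0042 for Nr1d1, 4.37e-07 for Nr1d2 and 0.0062 for Rora, and no call for these 3 genes changed. Rora had at least 748 reads per library.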
